A study of Mus musculus with 7 samples.

Results

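Retinoic acid is made from vitamin A in a chain of steps, and 9 genes that act along this chain were followed here in the nasal tissue of mice that inhaled diesel exhaust particles (DEPs). They were chosen by name and are Stra6, Aldh1a1, Aldh1a2, Aldh1a3, Crabp1, Crabp2, Cyp26a1, Cyp26b1 and Rarb. A probe was assigned to a gene when the transcript it was designed for carried that gene's symbol, which gave 11 probes of the 39429 on the array. Of these, 10 probes were bright enough to be tested, and each of the 9 genes kept at least 1 tested probe among 25162 tested probes in all. Cyp26b1 and Rarb were taken up by the study from these same arrays, so their differences are not independent evidence.

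The mice were female BALB/c, 6 weeks of age, 32 in the study, with no transgene named in the labels. The DEP groups inhaled 100 µg/m3 DEPs for 1 hour per day, 5 days per week, for 4 or 8 weeks in a chamber fed by an ultrasonic nebulizer, and the control mice received saline under the same conditions. Nasal tissue holding septum and turbinate was taken, and each array compared RNA of DEP-exposed tissue, labelled with the red dye Cy5, with RNA of control tissue, labelled with the green dye Cy3. There were 4 arrays at 4 weeks and 3 arrays at 8 weeks. The labels give the control RNA no exposure time of its own, and neither they nor the methods say how many mice went into an array, so p-values measure the spread between arrays, which may be partly technical. The dyes were never swapped and each exposure time lay on a slide of its own. A constant dye effect therefore cannot be told apart from DEP at either time, and slide cannot be told apart from exposure time.

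The number of probes well above background ranged over the arrays from 18601 to 25069 for DEP RNA and from 16985 to 26927 for control RNA, with 0 saturated spots. Log2 ratios were correlated between arrays over the tested probes with a value on every array. The correlations were 0.440 to 0.492 within the 4-week group, 0.709 to 0.876 within the 8-week group, and 0.0862 to 0.286 between times. All 11 listed genes of mature olfactory neurons and all 8 of sustentacular cells (the supporting cells of the olfactory epithelium) were tested, as were 5 enamel and dentin genes and 6 genes of skeletal muscle, so the collected tissue also carried RNA of tooth and muscle. In bulk tissue such as this, fewer cells of a type and less RNA per cell cannot be told apart.

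Cells take up retinol from its carrier protein in blood, store it as esters or oxidise it to retinal, and turn retinal into retinoic acid. Retinoic acid is carried by small binding proteins inside the cell, enters the nucleus and binds receptors that pair with RXR proteins on DNA, and enzymes of the CYP26 family degrade it. Several genes of the system, Rarb and Cyp26a1 among them, are themselves switched on by retinoic acid. In the nose, retinoic acid is known for its part in forming the olfactory placode and in renewing olfactory neurons from their progenitors.

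At 4 weeks, 4 of the 9 genes were higher in DEP-exposed than in control tissue and none was lower, at an adjusted p of at most 0.05. They were the degrading enzyme Cyp26b1, the receptor Rarb, the synthesis enzyme Aldh1a1 and the binding protein Crabp1. Over all 20664 genes and transcripts tested, 38.1% passed the same threshold, 21.6% as higher and 16.5% as lower, so a count of 4 of 9 is near the background share. The median log2 ratio of the 9 genes was 0.14, against 0.001 over all genes. It was 0.03 against −0.04 with median centring of each array, and 0.21 against 0.09 with the scanner software's processed signals. These medians include Cyp26a1, which was not well above background in either channel at 4 weeks. None of them reached the study's own threshold of a p of at most 0.01 with a change of at least 2-fold, which 0.934% of all genes passed as higher and 0.368% as lower. That count of 0 depended on the signals: it was 2 with the scanner software's processed signals (Rarb 1.28 and Cyp26b1 1.11 in log2 ratio) and 1 with a background offset of 10 (Rarb, 1.02). With its own normalization, the study lists both genes as passing this threshold. It also reports Cyp26b1 as higher by qRT-PCR on the same tissue.

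At 8 weeks, the same threshold was passed by 1 of the 9 genes, Rarb, which was lower, against 37.3% of all genes (20.3% higher, 17% lower), and none passed the study's threshold (2.1% of all genes as higher, 0.847% as lower). The median log2 ratio of the 9 genes was −0.09, against 0.01 over all genes (−0.38 with median centring of each array and −0.30 with the processed signals). The difference between the DEP effects at the 2 times passed for 4 of 9 genes, against 30.9% of all genes, and these were Cyp26b1, Rarb, Aldh1a1 and Crabp1. Each of them had a lower ratio at 8 weeks, a direction that 16.1% of all genes took, while 14.9% had a higher ratio. The count of 4 for the difference was 4 or 5 under every alternative tried, whereas the count at 8 weeks ran from 0 to 7. With each array centred on its median instead of along a curve fitted over intensity, which moved the median of all genes from 0.01 to −0.11, 7 of the 9 genes were lower at 8 weeks, and 3 were higher and 1 lower at 4 weeks.

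**Figure D1:**
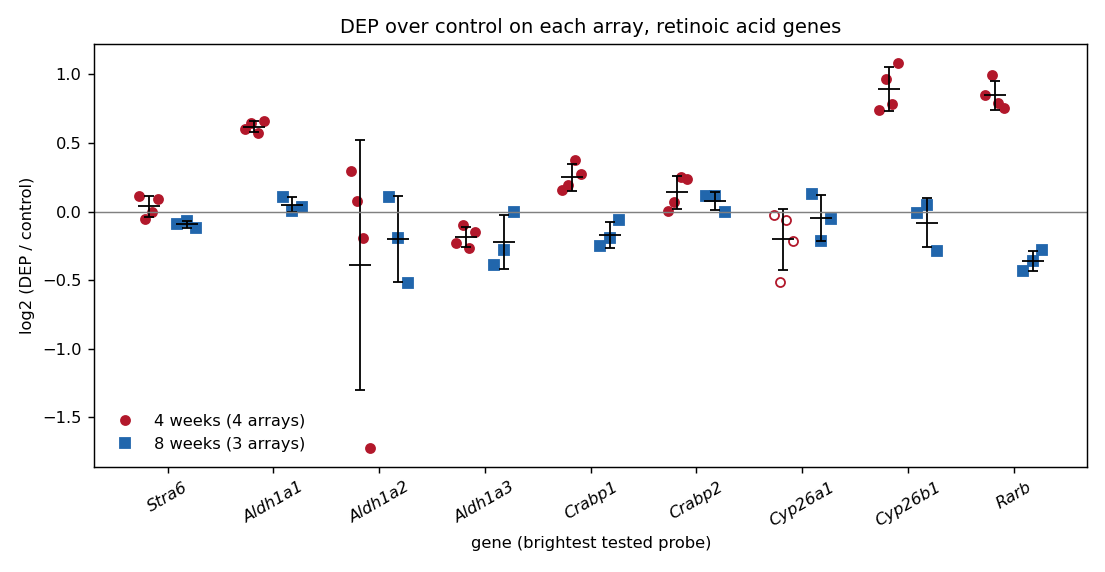
Log2 ratio of DEP to control on each array for the brightest tested probe of each of the 9 genes, at 4 weeks (red circles, 4 arrays) and 8 weeks (blue squares, 3 arrays); black bars are the mean ± SD, and open circles mark Cyp26a1 at 4 weeks, where neither channel was well above background. All 4-week points of Cyp26b1 and Rarb lie above 0.7 and all their 8-week points below 0.1, and the SD of Aldh1a2 at 4 weeks rests on 1 array at −1.72.

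Cyp26b1 encodes a cytochrome P450 that breaks down retinoic acid. On the 4 arrays of the 4-week group its log2 ratio was 0.74, 0.96, 0.78 and 1.08 (replicates 1 to 4), and on the 3 arrays of the 8-week group it was −0.01, 0.05 and −0.29. Every 4-week array lay above every 8-week array, and 1 of the 4 passed a log2 ratio of 1. At 4 weeks 29.7% of all genes were higher on every array. The mean at 4 weeks was 0.89 ± 0.16 (SD, n = 4), a 1.86-fold higher signal with DEP (limma, adjusted p = 0.000145), whereas the mean at 8 weeks was −0.08 ± 0.18 (SD, n = 3; adjusted p = 0.517, 95% interval −0.29 to 0.12). The effect at 8 weeks was smaller by 0.98 on the log2 scale, with an SE of 0.12 (adjusted p = 0.000997). With median centring the 8-week mean was −0.38 and passed the threshold (adjusted p = 0.0193), without turning the difference between times.

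The levels of Cyp26b1 in each channel were also read. In control tissue the log2 signal of Cyp26b1 was 8.62, 8.65, 8.83 and 8.75 on the 4-week arrays and 9.16, 9.19 and 9.30 on the 8-week arrays. In DEP-exposed tissue it was 9.36, 9.61, 9.61 and 9.83 at 4 weeks and 9.15, 9.24 and 9.01 at 8 weeks. Ordered by mean, the groups ran from control at 4 weeks (8.71 ± 0.10) through DEP at 8 weeks (9.13 ± 0.11) and control at 8 weeks (9.22 ± 0.07) to DEP at 4 weeks (9.60 ± 0.19). The values of DEP and control at 8 weeks overlapped, and the other neighbours in this order did not. The control level was 0.51 higher on the 8-week than on the 4-week arrays (limma, adjusted p = 0.00179), a comparison that crosses slides.

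Rarb encodes retinoic acid receptor beta, a receptor that is also a classical target of retinoic acid. The log2 ratio of its brightest probe was 0.85, 0.99, 0.79 and 0.76 on the 4-week arrays and −0.43, −0.36 and −0.28 on the 8-week arrays. All 4-week arrays were above 0 and all 8-week arrays below it. The mean was 0.85 ± 0.10 (SD, n = 4) at 4 weeks, 1.80-fold higher with DEP (adjusted p = 3.21e-05), and −0.36 ± 0.07 (SD, n = 3) at 8 weeks, 1.28-fold lower (adjusted p = 0.00353). The effect fell by 1.21 between the times (SE 0.08, adjusted p = 7.83e-05), and Rarb was the 1 gene of the 9 whose change between times passed 2-fold, against 1.16% of all genes in that direction. No gene of the 9 did so with the background fitted on all spots (Rarb −0.998) or with the mean over a gene's probes (Rarb −0.79), while Cyp26b1 did so too with an offset of 10 (−1.05), median centring (−1.17) and the processed signals (−1.15), and without 4-week replicate 1 or 3 or 8-week replicate 1 or 2 (−1.01 to −1.04). The call at 8 weeks was lost with the background fitted on all spots (−0.35, adjusted p = 0.0532). It was also lost with the methods' t-test, run here without pairing the channels of an array (adjusted p = 0.0804).

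Between the arrays of the 2 times the control channel of Rarb differed more than its DEP channel, a comparison that crosses slides. Control tissue gave log2 signals of 7.45, 7.32, 7.46 and 7.44 on the 4-week arrays and 8.54, 8.55 and 8.69 on the 8-week arrays. DEP-exposed tissue gave 8.30, 8.31, 8.25 and 8.20 at 4 weeks and 8.11, 8.18 and 8.40 at 8 weeks. The DEP values of the 2 times overlapped (means 8.26 ± 0.05 and 8.23 ± 0.15), the control at 4 weeks lay below them and the control at 8 weeks above them. The control level was 1.18 higher on the 8-week arrays (adjusted p = 3.42e-05), past 2-fold as for 1.68% of all genes.

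A dimmer probe of Rarb, assigned to the same transcript record, gave smaller ratios in the same directions. They were 0.06, 0.08, 0.28 and 0.30 at 4 weeks and −0.28, −0.10 and −0.18 at 8 weeks. Its groups did not overlap, but its mean missed the threshold at 4 weeks (0.18, adjusted p = 0.0501) and at 8 weeks (−0.19, adjusted p = 0.0689), and it passed for the difference between times (−0.37, adjusted p = 0.0207). This probe was well above background on 3 of the 4 DEP and 1 of the 4 control channels at 4 weeks. A further Rarb probe, of another transcript record, was not well above background on any array and was not tested.

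**Figure D2:**
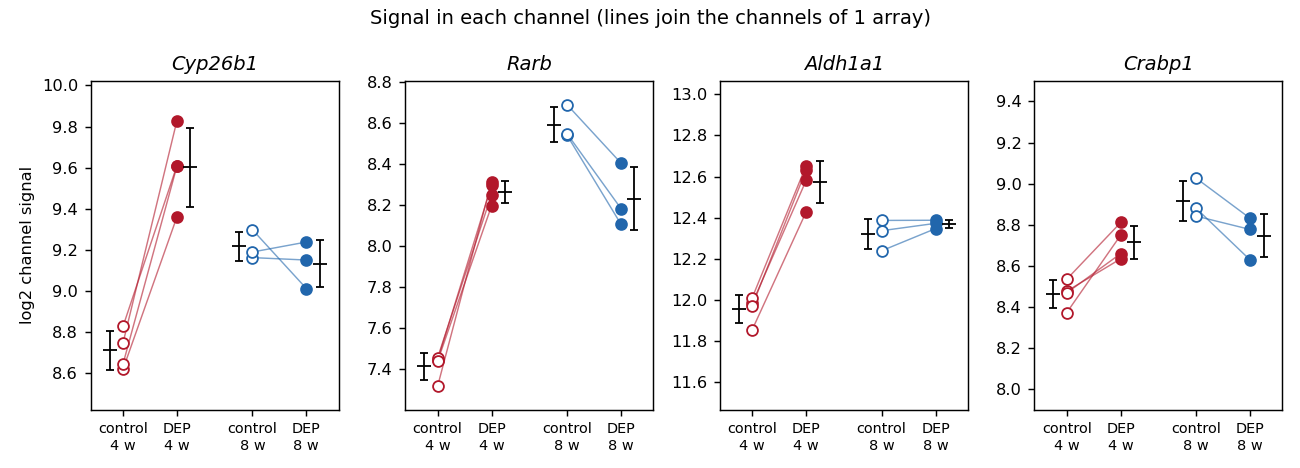
Log2 signal of Cyp26b1, Rarb, Aldh1a1 and Crabp1 in the control channel (open circles) and the DEP channel (filled circles) of each array at 4 weeks (red, 4 arrays) and 8 weeks (blue, 3 arrays); lines join the channels of 1 array, black bars are the mean ± SD, and each panel spans the same 1.6 log2 units. In all of these genes the control signal was higher on the 8-week than on the 4-week arrays, and for Rarb from a mean of 7.42 to 8.59.

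Promoters of the 9 genes, where listed, were read for retinoic acid response elements, which are direct repeats of a hexamer bound by the receptor pair. RefSeq windows of GRCm38.p6, from 250 bases before to 50 bases after a transcript start, were found for 7 of the 9 genes (11 windows). The hexamer searched was AGGTCA or 1 of its close forms, which are AGTTCA, the form GGGTCA and the form GGTTCA, in any pair that ran the same way, on both strands, with a spacer of 1, 2 or 5 bases of any kind. With the spacer of 5, Rarb held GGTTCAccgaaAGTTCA and Cyp26a1 held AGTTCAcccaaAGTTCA on the strand opposite to transcription, in a search that matched 32 of 32851 windows (0.0974%). With a spacer of 1 or 2, matched by 0.222% and 0.268% of windows, none of these 7 genes had a match, and Aldh1a3 and Crabp2 were not searched. The matches in Rarb and Cyp26a1, which were named above as switched on by retinoic acid, come from the genome and are no evidence about DEP. The 120 bases before each start are shown for the genes that rose at 4 weeks and for Cyp26a1, in the direction of transcription, with matched hexamers in capitals. They lie at chr14:16575477-16575596 (Rarb, minus strand), chr19:37697688-37697807 (Cyp26a1, plus strand), chr6:84593811-84593930 (Cyp26b1, minus strand), chr9:54764628-54764747 (Crabp1, plus strand), and chr19:20492463-20492582 and chr19:20601848-20601967 (Aldh1a1, plus strand, 2 listed starts).
Rarb: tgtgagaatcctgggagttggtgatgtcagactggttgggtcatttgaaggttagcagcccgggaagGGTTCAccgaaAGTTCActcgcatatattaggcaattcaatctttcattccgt
Cyp26a1: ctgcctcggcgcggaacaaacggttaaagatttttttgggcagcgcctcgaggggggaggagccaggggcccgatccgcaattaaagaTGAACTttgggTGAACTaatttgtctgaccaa
Cyp26b1: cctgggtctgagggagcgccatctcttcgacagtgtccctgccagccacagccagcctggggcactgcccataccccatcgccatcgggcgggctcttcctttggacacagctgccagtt
Crabp1: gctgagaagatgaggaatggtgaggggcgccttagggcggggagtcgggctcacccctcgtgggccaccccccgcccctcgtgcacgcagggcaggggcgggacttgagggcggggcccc
Aldh1a1, first start: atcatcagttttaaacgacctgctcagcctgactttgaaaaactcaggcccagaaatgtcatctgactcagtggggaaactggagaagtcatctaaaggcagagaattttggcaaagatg
Aldh1a1, later start: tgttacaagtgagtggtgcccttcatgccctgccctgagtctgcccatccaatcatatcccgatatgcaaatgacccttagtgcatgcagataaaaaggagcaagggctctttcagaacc
The match in Rarb lay 53 to 37 bases before the start and that in Cyp26a1 32 to 16 bases before it. Of these sequences, those of Cyp26b1, Crabp1 and Aldh1a1 held no match, which says only that these letters are not in these windows. Of 42 other retinoid genes with a window, none matched with the spacer of 5.

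Cyp26a1 encodes the sister enzyme of Cyp26b1. Its probe was not well above background in either channel on any of the 4-week arrays, so no ratio is given for that time. At 8 weeks it was well above background on 3 of 3 DEP and 2 of 3 control channels, and its log2 ratio was 0.12, −0.22 and −0.05 (mean −0.05, adjusted p = 0.765). The match described for its promoter therefore stands beside a transcript that was near the background of the array.

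The synthesis step is carried out by the retinaldehyde dehydrogenases Aldh1a1, Aldh1a2 and Aldh1a3, which make retinoic acid from retinal. Aldh1a1 had log2 ratios of 0.60, 0.64, 0.57 and 0.66 at 4 weeks and 0.11, 0.00 and 0.04 at 8 weeks. The 4-week arrays lay within 0.1 of each other and above every 8-week array. The mean was 0.62 ± 0.04 (SD, n = 4) at 4 weeks, 1.54-fold higher with DEP (adjusted p = 4.92e-05), and 0.05 ± 0.05 (SD, n = 3) at 8 weeks (adjusted p = 0.497), and the difference between times was −0.57 (SE 0.07, adjusted p = 0.000778). Its control signal was 11.95 ± 0.07 on the 4-week and 12.32 ± 0.08 on the 8-week arrays (limma, adjusted p = 0.0042), and the DEP signal stood at 12.57 ± 0.10 and 12.37 ± 0.02. With median centring the 8-week mean turned to −0.20 and passed the threshold as lower (adjusted p = 0.0477).

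Aldh1a3 did not pass the threshold at either time, although its mean was below 0 at both. Its ratios were −0.23, −0.10, −0.26 and −0.15 at 4 weeks (mean −0.19 ± 0.08, adjusted p = 0.0664) and −0.39, −0.28 and 0.00 at 8 weeks (mean −0.22 ± 0.20, adjusted p = 0.0612). No array of either time had a value above 0, and 24.9% of all genes were lower on every 4-week array and 31.6% on every 8-week array. The mean passed the threshold as lower under 5 of 17 alternatives at 4 weeks and 4 of 17 at 8 weeks. Median centring was among them at both times (limma, −0.26, adjusted p = 0.0223, and −0.42, adjusted p = 0.00411). The difference between times was −0.04 (95% interval −0.28 to 0.21, adjusted p = 0.819).

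Aldh1a2 could not be measured well at 4 weeks. Its ratios were 0.29, 0.08, −0.20 and −1.72 on the 4-week arrays and 0.10, −0.19 and −0.52 on the 8-week arrays. The value of replicate 4 came from the control channel, at 10.03 against 8.24 to 8.84 on the other 4-week arrays, while the DEP channel was at 8.31 to 8.64 on all of these arrays. The 4-week mean was −0.39 ± 0.91 (SD, n = 4; adjusted p = 0.335), and without replicate 4 it was 0.06 (adjusted p = 0.77).

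Crabp1 and Crabp2 encode the cellular retinoic acid-binding proteins, of which Crabp2 delivers retinoic acid to its receptors. For Crabp1 the log2 ratio was 0.16, 0.19, 0.38 and 0.28 at 4 weeks and −0.25, −0.20 and −0.06 at 8 weeks. The 4-week arrays were all above 0 and the 8-week arrays all below it, with means of 0.25 ± 0.10 (adjusted p = 0.0101) and −0.17 ± 0.10 (adjusted p = 0.0718). The effect fell by 0.42 between the times (SE 0.08, adjusted p = 0.00864), and the control signal was 0.45 higher on the 8-week arrays (adjusted p = 0.00232). With median centring the 4-week ratio of Crabp1 was 0.16 and missed the threshold (adjusted p = 0.0745), whereas the 8-week ratio passed it with median centring (−0.44, adjusted p = 0.00189) and with the processed signals (−0.30, adjusted p = 0.0258).

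For Crabp2 the ratio was 0.00, 0.07, 0.25 and 0.24 at 4 weeks and 0.11, 0.11 and 0.00 at 8 weeks, so the times overlapped. The means were 0.14 ± 0.12 (adjusted p = 0.0909) and 0.07 ± 0.07 (adjusted p = 0.421; −0.26 with median centring, adjusted p = 0.026), and the difference between times was −0.07 (95% interval −0.27 to 0.14). Stra6 encodes the membrane receptor through which cells take up retinol from its blood carrier. Its ratios ran from −0.05 to 0.11 at 4 weeks and from −0.12 to −0.07 at 8 weeks, and neither mean passed the threshold (0.04, adjusted p = 0.553; −0.09, adjusted p = 0.218). At 8 weeks it was called lower with median centring (−0.23, adjusted p = 0.0105), with the processed signals (−0.30, adjusted p = 0.018) and with the methods' t-test (adjusted p = 0.0215), and its difference between times passed with the processed signals (−0.48, adjusted p = 0.00983). Its control signal was 7.24 ± 0.08 on the 4-week and 7.58 ± 0.01 on the 8-week arrays (limma, adjusted p = 0.00376).

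In control tissue 5 of the 9 genes (Rarb, Cyp26b1, Crabp1, Aldh1a1 and Stra6) were higher on the 8-week than on the 4-week arrays and none was lower, against 33.3% of all genes (21.5% higher, 11.8% lower). This comparison crosses slides, so a slide effect cannot be told apart from a change in control tissue. It also shares the control RNA with the ratios at each time, and their values are therefore given side by side only.

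Marker genes of cell types moved between the same groups. Their counts stand beside 21.6% higher and 16.5% lower of all genes at 4 weeks, and 20.3% and 17% at 8 weeks. Of 11 genes of mature olfactory neurons, 8 were higher with DEP at 4 weeks (5 with median centring) and none was lower, and at 8 weeks none was higher and 9 were lower (10 with median centring). Their summed signal ranged over arrays from 84516 to 99584 in control and from 151993 to 166676 in DEP-exposed tissue at 4 weeks, and from 138231 to 154901 in control and from 99331 to 104080 in DEP-exposed tissue at 8 weeks. Omp, the olfactory marker protein, had a log2 ratio of 0.89 at 4 weeks (adjusted p = 3.9e-05) and −0.43 at 8 weeks (adjusted p = 0.00238). The groups thus stood in the same order of control and DEP at each time as for Rarb.

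Sustentacular genes behaved alike in part, with 5 higher and 2 lower of 8 at 4 weeks and 1 higher and 5 lower at 8 weeks. Their summed signal was 63189 to 74307 in control and 87486 to 112030 with DEP at 4 weeks, and 141520 to 164293 and 99747 to 105172 at 8 weeks. Of 8 fibroblast genes, 7 were lower at 4 weeks and 4 higher at 8 weeks, or 3 higher and 1 lower with median centring (summed signal 68471 to 81452 in control and 53831 to 59007 with DEP, then 67159 to 69597 and 85230 to 91859). All 5 tooth genes were lower at 4 weeks and higher at 8 weeks, their sum being 15944 to 17194 in control and 5212 to 5788 with DEP at 4 weeks, and 44234 to 44919 and 77757 to 101463 at 8 weeks. Every gene of these 4 lists was bright enough to be tested. Their part in the ratios of the retinoic acid genes was not tested.

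**Figure D3:**
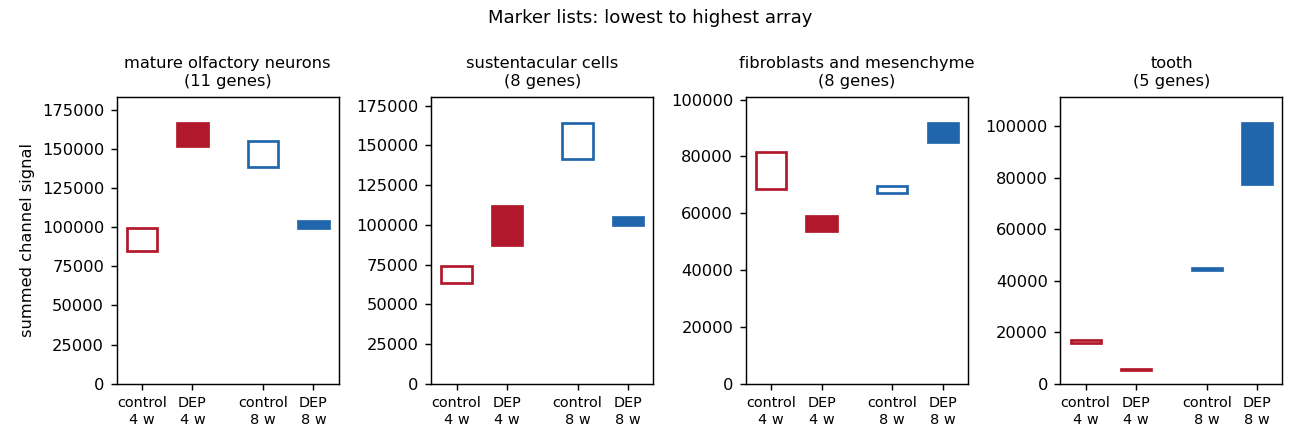
Summed channel signal of 4 marker lists in control (open boxes) and DEP-exposed tissue (filled boxes) at 4 weeks (red, 4 arrays) and 8 weeks (blue, 3 arrays); each box runs from the lowest to the highest array. In each list the DEP and control boxes do not overlap at either time, and the direction turns between 4 and 8 weeks.

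The remaining lists moved less evenly. Of 6 tested genes of ciliated respiratory cells, 3 were higher and 1 lower at 4 weeks and 2 higher at 8 weeks (1 higher and 2 lower with median centring), with summed signals of 2928 to 3155 in control and 3389 to 3746 with DEP at 4 weeks and 4035 to 4149 and 4628 to 5116 at 8 weeks. Of 10 squamous epithelium genes, 9 were lower at 4 weeks, and 3 were higher and 4 lower at 8 weeks, or 2 and 6 with median centring (12067 to 13679 and 6701 to 7872, then 8301 to 9125 and 6748 to 8664). Of 6 skeletal muscle genes, 2 were higher and 2 lower at 4 weeks, and 1 was higher and 3 lower at 8 weeks, or 1 and 5 with median centring (70893 to 75855 and 71696 to 82774, then 50524 to 56340 and 42872 to 45018). Of 5 tested neutrophil genes, 1 was higher at both times, with 4 lower at 4 weeks and 3 lower at 8 weeks (17012 to 18466 and 14167 to 18016, then 16249 to 16982 and 14228 to 17680).

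A further 54 genes of retinoid handling and response were listed, of which 40 were tested. At 4 weeks 10 of them were higher and 9 lower with DEP, at 8 weeks 8 were higher and 13 lower, and the effect differed between times for 12 (4 higher and 8 lower at 8 weeks). These shares (19, 21 and 12 of 40) stand against 38.1%, 37.3% and 30.9% of all genes. The directions depended on the scaling: with median centring they were 5 higher and 12 lower at 4 weeks and 3 higher and 20 lower at 8 weeks, with 3 higher and 12 lower for the difference, and with the scanner software's processed signals 15 higher and 9 lower at 4 weeks. The median log2 ratio of the 40 genes was 0.011 at 4 weeks and −0.07 at 8 weeks.

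Retinol supply and storage was represented by 3 tested genes of 9, of which all 3 were lower at 4 weeks and 2 at 8 weeks (3 with median centring and with the processed signals). Lower calls made up 16.5% of all genes at 4 weeks and 17% at 8 weeks. Rbp4, the carrier of retinol in blood, fell at both times (log2 ratio −0.56 and −0.37). Rbp7, a retinol-binding protein of fat and blood vessel cells, had a ratio of −1.05 at 4 weeks (adjusted p = 1.84e-05) and was the 1 gene of the 40 to pass 2-fold then. The ester-forming enzyme Dgat1, which also makes triglycerides, fell at both times (−0.79 and −0.90).

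Of 17 tested enzymes that handle retinol and retinal, or resemble those that do, 3 were higher and 2 lower at 4 weeks, and 2 higher and 5 lower at 8 weeks (at 4 weeks 2 higher and 4 lower with median centring, 6 higher and 2 lower with the processed signals). Among all genes, calls in either direction made up 38.1% at 4 weeks and 37.3% at 8 weeks. Rdh10, the dehydrogenase that makes retinal in the embryo, fell to the same degree at both times (−0.41, adjusted p = 0.0012; −0.40, adjusted p = 0.00234), as did Dhrs4 (−0.68 and −0.66). Rdh5 and Rdh12 rose at 4 weeks (0.34 and 0.34), and Rdh1 and Rdh9 at 8 weeks (0.56 and 0.54). The control channel of Rdh1 was well above background on 2 of 3 arrays at 8 weeks. Dhrs3, which turns retinal back into retinol, fell at 8 weeks (−0.41, adjusted p = 0.0011).

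Adh1, an alcohol dehydrogenase that oxidises retinol, turned direction. Its log2 ratio was 0.14, 0.42, 0.62 and 0.54 at 4 weeks and −0.50, −0.54 and −0.66 at 8 weeks, without overlap (means 0.43, adjusted p = 0.00489, and −0.57, adjusted p = 0.00257, with a difference of −0.999, adjusted p = 0.00101). Aldh1a7, a close relative of Aldh1a1, had ratios of 0.06, 0.19, 0.22 and 0.02 at 4 weeks (mean 0.12, adjusted p = 0.134) and −0.84, −0.67 and −0.61 at 8 weeks (mean −0.71, adjusted p = 0.000171). The difference between times was −0.83 for Aldh1a7 and −0.57 for Aldh1a1. Near-identical transcripts such as these can share signal on an array.

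Fabp5, a fatty acid-binding protein that can also carry retinoic acid, had the lowest ratio of the 40 genes at 8 weeks. Its ratios lay between −0.71 and −0.64 on the 4-week arrays and between −1.44 and −1.40 on the 8-week arrays (means −0.68, adjusted p = 2.26e-05, and −1.43, adjusted p = 1.73e-06), and the difference of −0.75 passed the test (adjusted p = 0.000168). Cyp26c1, the remaining gene of the CYP26 family, was not bright enough to be tested.

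All 12 listed receptors and cofactors were tested, and 5 were higher and none lower at 4 weeks, while at 8 weeks 1 was higher and 4 lower (with median centring, 2 higher and 1 lower, then none higher and 8 lower). Over all genes, 21.6% were higher and 16.5% lower at 4 weeks, and 20.3% and 17% at 8 weeks. The median of the list was 0.13 at 4 weeks and −0.17 at 8 weeks. Rxra, a partner of the retinoic acid receptors, had a ratio of 0.37 at 4 weeks (adjusted p = 0.00169). This brightest Rxra probe was well above background on only 3 of 4 DEP and 1 of 4 control channels then. The coactivator Ncoa1 had 0.34 at 4 weeks (adjusted p = 0.0112) and −0.42 at 8 weeks (adjusted p = 0.00769). Rarg (0.29 at 4 weeks), the brightest probe of Rxrg (0.22 and 0.26) and Ncoa3 (0.28 at 4 weeks) rose, and Rxrb (−0.24), Nr2f1 (−0.28) and Ncor1 (−0.41) fell at 8 weeks. At 4 weeks the calls of Rarg and Rxrg were lost under 10 and 11 of 17 alternatives, and at 8 weeks that of Rxrg was lost under 11 of 17, its value turning to −0.069 with median centring. The 3 tested probes of Ncor1 gave means of opposite sign at 8 weeks. Beside the brightest, 1 probe had ratios of 1.19, 1.22 and 1.63, and the dimmest −0.20, −0.29 and −0.11. A dimmer probe of Nr2f1 had −0.25, −0.03 and 0.22 at 8 weeks. For Ncoa1, a dimmer probe had 0.06, −0.11 and −0.40 at 8 weeks and another −0.24, −0.46 and −0.47, and both were above 0 on every 4-week array. A dimmer probe of Ncoa3 had −0.03, 0.08, −0.06 and 0.18 at 4 weeks. Dimmer probes of Rxra and Rxrg also had means of the opposite sign at 4 weeks, and that of Rxrg was below 0 on every array of both times.

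Of 7 tested genes known to respond to retinoic acid, 2 were higher and 3 lower at 4 weeks, and 5 higher and 1 lower at 8 weeks (with median centring, 1 higher and 3 lower, then 1 higher and 2 lower). The shares over all genes were 21.6% higher and 16.5% lower at 4 weeks, and 20.3% and 17% at 8 weeks. Rarres1, a membrane protein found as a responder to retinoids in skin, had log2 ratios of −0.74, −0.74, −0.52 and −0.56 at 4 weeks and 1.35, 1.43 and 1.29 at 8 weeks. All arrays of the 2 times lay on opposite sides of 0, with means of −0.64 (adjusted p = 0.000152) and 1.36 (adjusted p = 5.8e-06) and a difference of 2.00 (adjusted p = 9.83e-06), so it ran opposite to Rarb at both times. Rarres2, which encodes the secreted protein chemerin, had values of −0.16 at 4 weeks and 0.25 at 8 weeks. Its 4-week call was lost under 7 of 17 alternatives, and with median centring its 8-week value was −0.067, so that it did not turn.

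The homeobox gene Meis1 rose at both times (0.39 and 0.53), as did the crosslinking enzyme Tgm2 (0.20 and 0.38), and Meis2 rose at 8 weeks (0.41). With median centring none of these passed at 8 weeks (Meis1 0.24, Tgm2 0.055, Meis2 0.14), nor did Tgm2 at 4 weeks (0.084). Tgm1, the transglutaminase of squamous epithelium, fell at both times (−0.64 and −0.43), beside the squamous genes given above. Stra8, Cdx1 and the 4 listed Hox genes were not bright enough to be tested.

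**Figure D4:**
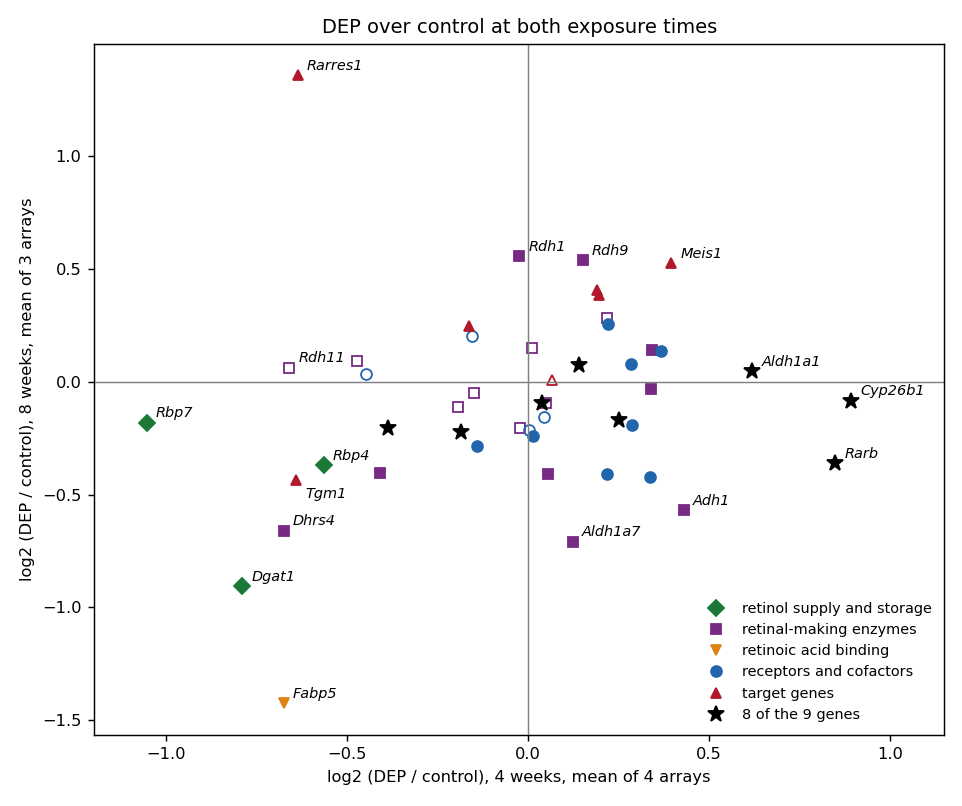
Mean log2 ratio of DEP to control at 4 weeks (4 arrays) against 8 weeks (3 arrays) for 40 other retinoid genes, by role, and for 8 of the 9 genes (black stars, Cyp26a1 left out); coloured symbols are filled where the gene passed an adjusted p of at most 0.05 at either time. Rarres1 stands alone at the upper left (−0.64 and 1.36), and Cyp26b1, Rarb and Aldh1a1 lie to the right near or below 0 on the 8-week axis.

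The probes with a gene symbol whose ratios were most like those of Cyp26b1 were found by the root mean square difference over the 7 arrays, among 20045 probes. They were Lrrc43 (0.112), Gsk3b (0.113) and Six3os1 (0.135). Lrrc43 had means of 0.94 and −0.12 at the 2 times, Gsk3b 0.84 and −0.03, and Six3os1 0.84 and −0.03, beside 0.89 and −0.08 for Cyp26b1.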

How the data were processed

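Gene expression in nasal tissue was measured on 7 two-colour Agilent 4x44K arrays. The authors scanned the arrays and quantified the spots with Feature Extraction (version 10.10.1.1 per the file headers), and the deposited files hold each spot's median intensity and median background in both channels. Each array has 44397 spots, 43020 of them not controls. The study's own normalization was not used here.

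Background was corrected with normexp and an offset of 50 in limma (version 3.58.1, R version 4.3.3), fitted without spots marked as background outliers, since on 4-week replicate 2 these moved the fitted mean of the DEP channel from −11.7 to −614. Log2 ratios (Cy5 over Cy3) were normalized by loess within arrays, non-uniform spots were dropped, and a probe spotted more than once was given its mean. A probe was kept where 3 or more of the 7 arrays held it well above background for DEP or for control RNA. A gene was named from the transcript accession through RefSeq and represented by its brightest tested probe. limma fitted 1 mean per exposure time over all 7 arrays, and p-values were adjusted over all 25162 tested probes (Benjamini-Hochberg, threshold 0.05). Channel levels were taken after loess and Aquantile normalization. The fit was tested on simulated data.

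The genes and lists, cell type markers included, were chosen with earlier results of these data known. Some listed genes are not reported here and were left out of the list counts, though their probes stayed in the fit. Named were the 9 genes, the other listed retinoid genes that passed the threshold, Aldh1a7 and Cyp26c1 as relatives, and the 3 probes most like Cyp26b1. Alternatives varied the background, offset, centring, starting signals, filters, probe rule, test, replicate block and arrays. Replicate numbers were not taken to pair arrays, as the labels give them as names only. The number of arrays limits the precision.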

Additional observations from a re-analysis of the deposited data

Results flagged for a closer look

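For 5 probes of the 9 genes the DEP effect differed between 8 and 4 weeks at an adjusted p of at most 0.05 (limma). The differences in log2 ratio were −0.98 for Cyp26b1, −1.21 for the brightest and −0.37 for a dimmer probe of Rarb, −0.57 for Aldh1a1 and −0.42 for Crabp1.

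Of the other retinoid genes 12 differed in the same way. The ratio was lower at 8 weeks for Rdh5 (−0.37), Dhrs3 (−0.46), Adh1 (−0.999), Aldh1a7 (−0.83), Fabp5 (−0.75), Rarg (−0.48), Ncor1 (−0.63) and Ncoa1 (−0.76), and higher for Rbp7 (0.87), Rdh9 (0.39), Rarres1 (2.00) and Rarres2 (0.41). The difference of Rarg missed the threshold under 9 of 16 alternatives (adjusted p up to 0.106). Each exposure time lay on 1 slide, so that slide and time cannot be told apart.

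Among 37 probes checked at 4 weeks, 1 value stood apart from its group. It was Rdh1 on 4-week replicate 2, where the log2 ratio was −0.65 and the rest lay at 0.16 to 0.21. It was the only one beyond Dixon's limit, which chance passes in about 1 of 20 groups. The check covered the tested probes of the retinoic acid genes and 27 other retinoid genes that had passed the threshold. Genes that had not passed were left out, so the count of 1 is for this selection only. Unchecked values that lay apart were −1.98 for Rdh11 (rest −0.34 to −0.08) and −1.58 for Nrip1 (rest −0.18 to 0.02) on 4-week replicate 3. Others were −1.23 for Nr2f2 on replicate 4 (rest 0.06 to 0.28) and 0.02 for Rdh16 on replicate 1 (rest −0.22 to −0.20).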

How the results depend on the processing

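At 4 weeks 4 or 5 of the 9 genes passed the threshold under every alternative, the difference between times gave 4 or 5 and the control channel 5. At 8 weeks the count of 1 became 0 with the background fitted on all spots, 7 with median centring, 4 with the processed signals and 2 with a filter on both channels of all arrays, and leaving out 1 array gave 1 to 2 (2 without 8-week replicate 3). Cyp26b1 passed at 4 weeks under all 17 alternatives (log2 ratio 0.76 to 1.11), as did Rarb (0.51 to 1.28). With median centring the ratio turned for Stra6 at 4 weeks (−0.014), and at 8 weeks for Aldh1a1 (−0.20), Crabp2 (−0.26), Rarres2 (−0.067) and Rxrg (−0.069). It also turned for Cyp26a1 at 8 weeks with the processed signals (0.37) and for Ncor1 with the mean over its probes (0.25 at 8 weeks, 0.19 for the difference). Leaving out 1 array at a time gave −0.61 to 0.057 for Aldh1a2 at 4 weeks, −0.26 to 0.41 for its difference and −0.36 to 0.23 for its control channel, where replicate 4 set the sign. It gave −0.15 to 0.047 for the difference of Aldh1a3, −0.13 to 0.036 for Cyp26a1 at 8 weeks and −0.15 to 0.018 for Cyp26b1 at 8 weeks. The cause of these changes was not tested.

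With the replicate number as a block the difference between times again passed for 4 of the 9 genes and its value for Aldh1a2 was −0.26. Over all genes the block gave 3216 calls against 6388, and same-numbered arrays did not deviate together (correlations −0.00657, −0.00766 and 0.0164). Calls over all genes fell from 7878 to 5042 at 4 weeks with the background fitted on all spots and to 4365 with the methods' t-test, from 7708 to 4816 at 8 weeks with the t-test and to 4461 without 8-week replicate 2, which gave 3872 for the difference. Higher and lower calls were 4465 and 3413 at 4 weeks, 3214 and 4349 with median centring and 6369 and 3019 with the processed signals, at 8 weeks 4205 and 3503 against 2536 and 6872 with median centring, and for the difference 3070 and 3318 against 1779 and 4378 with median centring and 2784 and 5038 with the processed signals. At the methods' own p and fold threshold the unpaired t-test passed none of the 9 genes at either time on the values used here. This stands against 2 at 4 weeks for limma with the processed signals and 1 with an offset of 10. The processed signals moved the median difference of all genes from 0.02 to −0.09. Among 1389 recomputed values of named genes, 19 calls were gained (2 with a turned sign) and 91 lost (3 with a turned sign), and 1 stayed past the threshold with the sign turned. Other retinoid genes entered this count only for comparisons they had passed, so they could lose a call but not gain one. The numbers gained and lost therefore cannot be weighed against each other. With the processed signals, calls among the 40 other retinoid genes rose from 19 to 24 at 4 weeks. Signal over background limits Cyp26a1, Cyp26c1, the dimmer Rarb probes, Rxra, Rdh1 and, in control tissue at 8 weeks, Rarres1.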
